A study of Mus musculus with 125 samples.

Results

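In adult mouse heart endothelium, 1006 regions of open chromatin met a strict rule of presence and absence, out of 109038 regions found in adult endothelium of any organ. Overlapping peaks of the 12 adult endothelial peak lists were merged into regions. A region was kept if it had a peak in both adult heart endothelial libraries, in none of the 10 adult endothelial libraries of brain, kidney, liver, lung and retina, and in no peak of the adult heart input library. Of 25597 regions with a peak in both adult heart libraries, 1711 had none in the other organs, and 705 of these were set aside because the heart input had a peak there. Members were thus chosen by peak presence in the adult lists. The count depends on the adult heart libraries: it was 2392 without library 1 and 1606 without library 2. The 1006 that remain are called heart-only regions, a name that refers to the adult lists alone.

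The study profiled nuclei by ATAC-seq, which uses a transposase to cut and tag accessible DNA, in several organs and at 3 ages. All groups used here came from mice given tamoxifen at 0.015 mg/kg in which GFP marked the vessels: adults of 2 months, pups labelled P6 (the protocol gives collection at P7), and embryos labelled E12. The endothelial libraries compared were heart (2 adult, 2 at P6, 4 at E12), brain (2, 3 and 3), kidney, liver and lung (2 adult and 2 at P6 each), retina (2 adult, 3 at P6) and trunk (4 at E12). Input libraries, from the whole tissue as labelled, stood beside them, with 1 of adult heart, 2 of P6 heart and 1 of E12 heart. The recombinase that the tamoxifen acts on, and whether replicates came from separate animals or pools, are not given in the sources used here, so p-values measure the spread between libraries, which may be technical.

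Endothelial cells line every vessel, but each organ adds its own program to a shared one. In the heart, a dense bed of continuous capillaries hands fatty acids to cardiomyocytes, arteries and veins of the coronary tree feed and drain it, and the endocardium lines the chambers and valves. Accessible sites away from gene starts include enhancers, which differ between cell types far more than promoters do, and endothelial enhancers are known for binding ETS family factors such as ERG together with SOX, FOX and GATA factors.

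The adult heart lists had peaks at the starts of most general endothelial and capillary genes and at few starts of cardiomyocyte genes. Over all 21887 protein-coding genes, 50.0% and 51.2% had a peak within 1 kb of a start in adult heart endothelial libraries 1 and 2, and 58.0% in the adult heart input. Such a peak lay at the start of 17 of 18 general endothelial genes in each of the 2 adult heart endothelial libraries, Fli1 being the exception, and of 17 of 18 heart capillary genes, all but Car4. The input was about as high on these lists, with 17 and 16. Of 18 endocardial and valve genes, 4 and 5 had one in the endothelial libraries against 13 in the input, and of 7 lymphatic genes 2 and 1 against 3. Of 18 cardiomyocyte genes, 1 had such a peak in each (Atp2a2, the sarcoplasmic calcium pump), and Myh6, Tnnt2, Tnni3, Actc1 and Ttn had none. The adult heart input had one at 14 of the 18. Of 9 fibroblast genes, 2 had one in each endothelial library against 7 in the input. Of 10 mural genes, 2 had one against 6. Of 10 blood and macrophage genes, 0 and 1 had one against 3. A wider window of 5 kb gave higher counts. The endothelial libraries then had a peak at 8 and 5 cardiomyocyte, 3 and 4 fibroblast, 4 and 4 mural and 2 and 3 blood genes. The input had 16, 8, 9 and 9. List lengths ran from 19464 to 47334 peaks in the adult endothelial libraries, from 27160 to 92863 at P6 and from 39096 to 120456 at E12, where heart library 3 was the shortest, with 10139069 tags kept. Since list lengths differed this much, shares of P6 and E12 lists cut to 1 length within each age are given beside the full ones. This alternative was chosen after seeing the data.

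Few listed promoters are touched by heart-only regions. Their sequences are shown because the start of the gene is then part of the region, which is rare in the set. The RefSeq promoter table (GRCm38.p6, the assembly also called mm10) holds 21238 stretches of 250 bases before a protein-coding start, and 4 of them, of 3 genes, overlap a heart-only region. They belong to Prnd, which encodes the prion-like protein doppel, Ahsg, which encodes the plasma protein fetuin-A secreted by the liver, and Fxyd6, a regulator of the sodium pump. The 250 bases before the start follow for each, 5′ to 3′ on the plus strand, with the bases inside the heart-only region in capitals. Prnd has 2 listed starts, and the upstream one is shown.
Prnd, chr2:131950611-131950860: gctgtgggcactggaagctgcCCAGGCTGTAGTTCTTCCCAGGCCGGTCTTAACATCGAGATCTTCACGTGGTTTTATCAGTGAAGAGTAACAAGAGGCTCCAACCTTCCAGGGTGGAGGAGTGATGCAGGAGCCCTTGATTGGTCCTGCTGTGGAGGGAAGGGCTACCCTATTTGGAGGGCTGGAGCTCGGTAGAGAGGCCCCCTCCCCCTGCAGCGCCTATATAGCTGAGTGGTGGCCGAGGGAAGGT
Ahsg, chr16:22891765-22892014: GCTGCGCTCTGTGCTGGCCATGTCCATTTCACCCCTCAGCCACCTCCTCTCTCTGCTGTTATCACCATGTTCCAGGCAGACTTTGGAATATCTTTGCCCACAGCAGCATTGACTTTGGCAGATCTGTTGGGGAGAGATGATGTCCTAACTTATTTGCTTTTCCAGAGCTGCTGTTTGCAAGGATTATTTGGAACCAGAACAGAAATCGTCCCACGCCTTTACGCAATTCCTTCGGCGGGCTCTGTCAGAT
Fxyd6, chr9:45369935-45370184: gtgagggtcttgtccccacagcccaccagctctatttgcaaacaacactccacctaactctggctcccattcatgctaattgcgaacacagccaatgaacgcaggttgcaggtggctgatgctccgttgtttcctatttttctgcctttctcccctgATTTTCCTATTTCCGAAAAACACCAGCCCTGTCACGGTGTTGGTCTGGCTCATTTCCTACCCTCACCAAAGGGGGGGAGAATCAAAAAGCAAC

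The heart-only region covers 229 of these bases in Prnd, all 250 in Ahsg and 93 in Fxyd6. Their GC content is 58% in Prnd, 50% in Ahsg and 50.4% in Fxyd6, and they hold 6, 6 and 5 CpG dinucleotides. Over the 9993 promoters that overlap any region of both adult heart libraries the medians were 61.2% GC and 17 CpG, and over all 21238 they were 55.6% and 10. Short motifs of endothelial and other factors were searched as letters on both strands. The ETS letters AGGAAG, present in 28.5% of all promoters, the GATA letters AGATAA (8.81%), the FOX letters TGTTTAC (2.61%) and the SOX letters ACAATGG (2.37%) matched in 0 of the 4 windows, which says only that these letters are not there. The NFAT letters GGAAAA, in 19.8% of all promoters, matched once in Ahsg and once in Fxyd6. The KLF letters CCACCC (30.2% of all promoters) and E-box letters CANNTG (62.8%) each matched in 2 of the 4 windows. The TEAD letters GGAATG (11.7%) matched in 1 and the CTCF core letters CCCTC (64.4%) in all 4. The AP-1, homeobox, nuclear receptor, MEF2 and CREB letters matched in 0.

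These 3 regions differ in how far their presence reaches beyond the adult heart. At Ahsg (region chr16:22891728-22892060), the fold enrichment of the peak was 2.84 and 3.73 in the 2 adult heart libraries and 7.96 and 6.86 in the 2 P6 heart libraries, and E12 heart libraries 2 and 4 had peaks of 3.19 and 2.92. No P6 or E12 endothelial library of another organ had a peak there, but the 2 adult and 2 P6 liver inputs and 1 P6 kidney input did. At Prnd (chr2:131950632-131951081), fold was 3.13 and 3.72 in the adult heart, 6.18 and 5.32 at P6, and 3.73 to 4.48 in the 4 E12 heart libraries. All 12 P6 endothelial libraries of other organs and all 7 E12 libraries of brain and trunk also had a peak at Prnd. The Fxyd6 region (chr9:45370092-45370548) lay between them by its count of endothelial libraries, with a peak in both P6 and all 4 E12 heart libraries, in 6 of 12 other P6 endothelial libraries and in all 7 E12 brain and trunk libraries. By inputs it reached farthest, with a peak in 16 input libraries, both P6 heart inputs among them, against 7 at Prnd and 5 at Ahsg.

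Heart-only regions were weak peaks within the adult heart lists. Fold enrichment, the authors' ratio of the peak's tag density to the local background, had a median of 3.44 (range 2.08 to 6.18) in adult heart library 1 and 3.73 (2.23 to 6.55) in library 2. The medians of −log10 q were 3.23 and 3.97, and the median member stood at percentile 28.7 and 35.2 of all peaks of its list by fold. For comparison, the other 24591 regions of both adult heart libraries had median folds of 4.21 and 4.51, and the 705 regions set aside for their heart input peak had 4.02 and 4.33. The log2 folds of the 2 libraries correlated over the 1006 regions with Pearson's r = 0.594 and Spearman's rho = 0.572, a description over regions that share the same 2 libraries. The rule used these lists, so none of these values is a test. Just outside the rule lay 400 regions that met it but for a peak in exactly 1 other adult endothelial library, with median folds of 3.43 and 3.69, and 1958 regions with a peak in only 1 of the 2 heart libraries. In the adult inputs of the other organs, which the rule did not use, the share of heart-only regions with a peak ran from 0.199% in retina input 1 to 9.94% in lung input 2, and 788 of the 1006 (78.3%) had a peak in no adult input of any organ. Over all 25597 regions of both adult heart libraries, members included, these inputs ran from 43.7% in liver input 1 to 81.6% in lung input 2. The count of 788 was not made for other regions, and the rule had already removed those with a heart input peak.

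**Figure D1:**
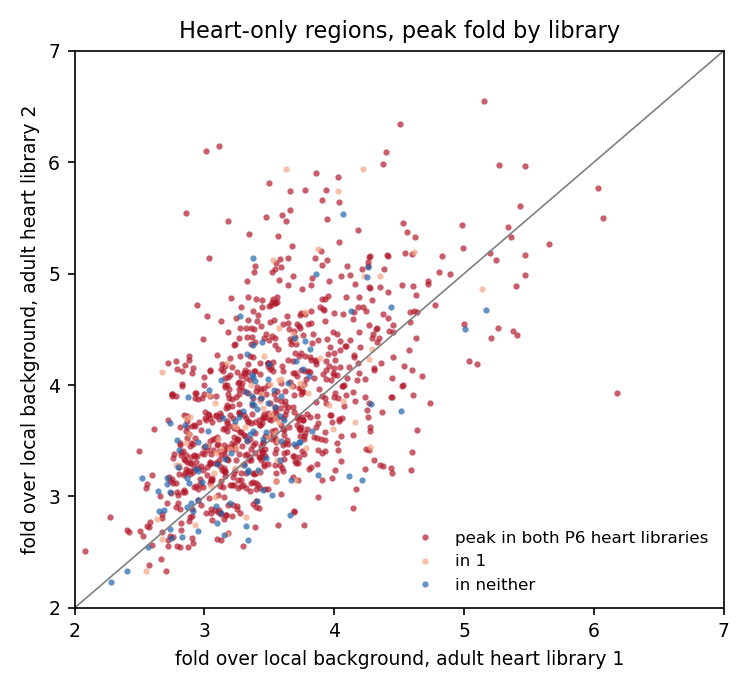
Fold enrichment of the 1006 heart-only regions in adult heart endothelial library 1 (horizontal) and 2 (vertical), 1 point per region, coloured by the number of P6 heart endothelial libraries with a peak there. The medians are 3.44 and 3.73, and regions with peaks in both, 1 or neither P6 library lie over one another.

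Heart-only regions were distal. A listed start lay within 1 kb of 17 of the 1006 (1.69%), against 34.1% of the 24591 other regions of both adult heart libraries. Another 9 (0.895%) lay within 1 kb of an end of a gene whose start is not in the promoter table. Of the rest, 501 (49.8%) lay in a gene and 479 (47.6%) between genes, against 30.8% and 27.8% of the other regions. Exons and introns were not told apart here. The median distance to the nearest start, or to a gene end where no start is listed, was 37.6 kb (quartiles 12.9 and 102 kb) against 6.1 kb, and 25.3% of heart-only regions were over 100 kb away against 9.72%. They were also shorter, with a median of 375 bases (201 to 1168) against 810. The 705 regions with a heart input peak had the same placement, with 1.99% at a listed start, a median distance of 38.3 kb and a median length of 468 bases, so distance from genes is not particular to the regions that lack an input peak.

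**Figure D2:**
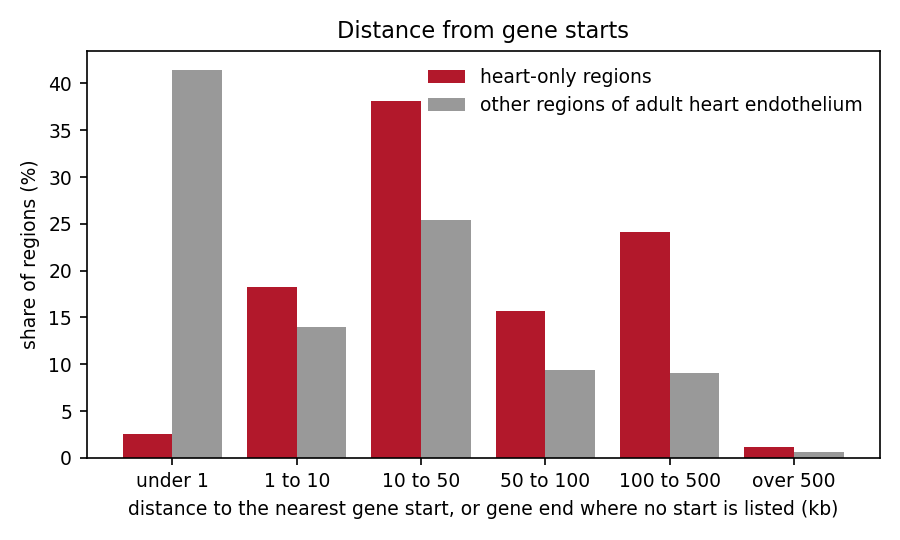
Share of regions (vertical, %) by distance in kb to the nearest gene start, or gene end where no start is listed (horizontal), for the 1006 heart-only regions (red) and the 24591 other regions of both adult heart endothelial libraries (grey). Under 1 kb lie 2.58% of the heart-only regions and 41.4% of the others, and from 100 to 500 kb 24.2% and 9.1%.

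At P6, most heart-only regions had a peak in each heart endothelial library, and a smaller share had one in each endothelial library of another organ. The share of the 1006 with a peak was 86.6% and 84.0% in the 2 P6 heart libraries. In the other organs it was 30.6% and 25.8% in lung, 30.1% and 13.5% in kidney, 23.7%, 18.7% and 22.5% in retina, 4.0%, 15.6% and 23.5% in brain, and 20.5% and 8.9% in liver. Both heart libraries stood above every other one. The means were 85.3% ± 1.83 (SD, n = 2) and 19.8% ± 8.10 (SD, n = 12), a difference of 65.5 percentage points (exact 2-sided permutation test over libraries, p = 0.010989, the smallest that the 91 regroupings can give). The heart lists held 76326 and 72110 peaks, and the retina lists, at 84241 to 92863, were longer than either. With every P6 list cut to its 27160 peaks of highest fold, the heart shares were 40.7% and 39.1% and the others 0.398% to 8.25%, with both lung libraries (8.25% and 7.46%) the highest of these.

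Heart capillary, endocardial, cardiomyocyte and fibroblast markers all moved with this result. At P6 the heart endothelial lists had a start peak at 17 and 18 of 18 heart capillary genes, where the other 12 had 8 to 15. For endocardial and valve genes the counts were 15 and 15 of 18, against 6 to 14. The P6 heart endothelial lists, unlike the adult ones, had a start peak at 15 and 17 of 18 cardiomyocyte genes, where the other 12 P6 endothelial lists had 1 to 7, and at 6 and 7 of 9 fibroblast genes, where the others had 1 to 5. Of 10 mural genes they had a start peak at 9 and 7, within the 2 to 10 of the others. Blood and macrophage genes (2 and 2 of 10, against 0 to 7) and epicardial genes (2 and 2 of 5, against 0 to 3) also lay within the range of the others. Over all protein-coding genes, 61.9% and 61.7% had one in the P6 heart endothelial lists and 51.5% to 66.3% in the other 12. The part of these markers in the result was not tested. The 2 P6 heart inputs, which had a start peak at all 18 cardiomyocyte genes, had a peak at 21.9% and 21.2% of the heart-only regions (21.5% ± 0.492, SD, n = 2). That is 63.8 points below the P6 heart endothelial libraries, a comparison of 2 against 2 libraries in which an exact permutation test cannot give less than p = 0.333. The 14 P6 inputs of other organs ran from 2.29% to 22.6%, with the 3 lung inputs, at 22.6%, 20.7% and 17.4%, near the heart inputs. Of 821 heart-only regions with a peak in both P6 heart endothelial libraries, 556 had none in either P6 heart input. At least 1 of these inputs had a peak at 277 of the 1006 regions (27.5%), against 88.2% of the other regions of both adult heart libraries. The rule kept only regions with no peak in the adult heart input, so a low share in the P6 heart inputs follows in part from the choice of regions: the 705 regions set aside for an adult heart input peak had 57.2% ± 0.301 (SD, n = 2) there and 93.3% ± 0.1 (SD, n = 2) in the P6 heart endothelial libraries. The heart libraries of all ages, inputs included, also carry a read file suffix in their headers that no other organ has, so organ and read processing cannot be told apart in the comparison with other organs; the comparison with heart inputs is within that processing.

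Region by region, 821 of the 1006 (81.6%) had a peak in both P6 heart libraries, 74 in 1 and 111 in neither. The same count was 98.1% for the other regions of both adult heart libraries and 24.1% for adult endothelial regions with no adult heart peak. The share in both P6 heart libraries was 76.6%, 82.9%, 79.3% and 87.7% in 4 nearly equal groups of heart-only regions from the lowest to the highest adult fold, so it did not rise at every step. Where a P6 heart peak was present, its median fold was 4.49 and 4.10, at percentiles 61.6 and 60.4 of the 2 lists, against percentiles of 23.5 to 40.0 for the heart-only regions that had a peak in the other P6 endothelial lists. At P6, where the lists are also longer, 580 (57.7%) had a peak in at least 1 endothelial library of another organ. That share was 98.6% of the other regions of both adult heart libraries and 84.3% of the 74228 adult endothelial regions with no adult heart peak. A peak in both P6 heart libraries and in no other P6 endothelial library was found at 286 (28.4%), against 1.08% and 0.296% of the same 2 sets. Low shares in these sets follow in part from how they were chosen. Nearly all regions of the first had a peak in another adult organ, and those of the second had none in adult heart. The 705 regions set aside for a heart input peak were not counted in this way. Of the other organs, lung had a peak at 330 of the 1006 regions in at least 1 library, kidney at 307, retina at 287, brain at 270 and liver at 213. These shares, from 21.2% in liver to 32.8% in lung, compare with 89.8% to 93.1% of the other regions of both adult heart libraries and 28.8% in kidney to 53.6% in retina of the regions with no adult heart peak.

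Other organs' sets were also mostly present in their own organ at P6, except for brain library 1 and retina. By the same rule of 2 adult libraries and no other organ, with the input condition taken from the adult inputs of the same organ, 558 kidney-only regions had a peak in 77.1% and 90.5% of cases in the 2 P6 kidney libraries, 53 lung-only regions in 88.7% in both P6 lung libraries, and 5637 liver-only regions in 70.4% and 89.9%. The 2345 brain-only regions ranged from 20.9% to 90.6% over 3 P6 brain libraries, of which library 1 has the shortest P6 list, and the 37 retina-only regions from 43.2% to 51.4% over 3 P6 retina libraries. The heart set, at 84.0% and 86.6%, lay within the range of kidney and liver, below lung and above retina. No test was made of these differences.

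**Figure D3:**
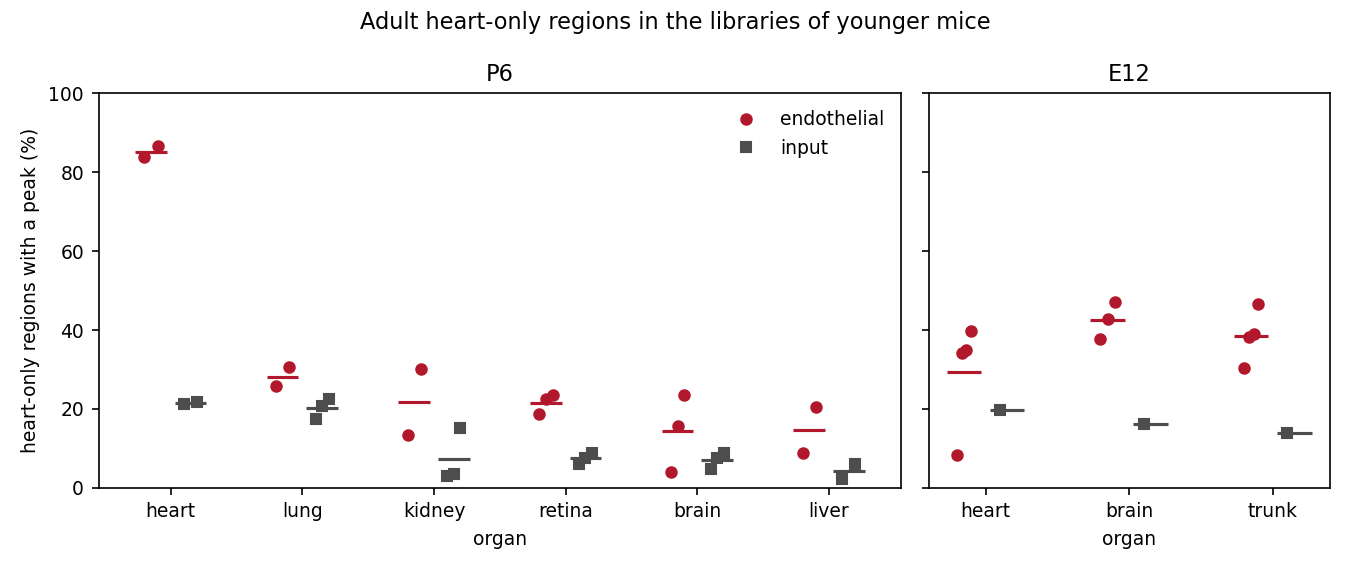
Share of the 1006 heart-only regions with an overlapping peak (vertical, %) in each P6 library (left) and E12 library (right) by organ; red circles are endothelial libraries, grey squares inputs, and horizontal lines group means. The 2 P6 heart endothelial libraries, at 84.0% and 86.6%, stand above all others, while the 4 E12 heart libraries, at 8.4% to 39.8%, overlap brain and trunk.

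At E12 the heart was not above the other organs, and with equal lists it was below them. The share of heart-only regions with a peak was 34.9%, 34.2%, 8.4% and 39.8% in heart endothelial libraries 1 to 4, 37.8%, 47.0% and 42.7% in brain, and 39.1%, 30.4%, 38.3% and 46.5% in trunk. The groups overlapped, with heart library 3, the shortest list, lowest of all. The mean was 29.3% ± 14.1 (SD, n = 4) in heart and 40.3% ± 5.77 (SD, n = 7) in brain and trunk, a difference of −10.9 points (exact 2-sided permutation test, p = 0.0727 over 330 regroupings), and of −3.98 points without heart library 3 (exact permutation p = 0.3). Against brain alone the difference was −13.2 points (exact permutation p = 0.143) and against trunk alone −9.24 (exact permutation p = 0.343). With every list cut to 39096 peaks, an alternative chosen after seeing the data, the 4 heart libraries held 9.94%, 9.64%, 8.45% and 10.0% of the regions. This was under all 3 brain (12.7% to 14.7%) and all 4 trunk libraries (15.6% to 19.1%), a difference of −6.09 points (exact permutation p = 0.00303, the smallest possible). Brain and trunk did not overlap one another either. The test takes libraries, not organs, as the unit, so its p-value does not measure spread between organs. The E12 heart input held 19.7%, with a start peak at 18 of 18 cardiomyocyte genes against 10, 10, 3 and 11 in the heart endothelial libraries, and the brain and trunk inputs held 16.2% and 14%. A lower E12 heart mean was not particular to heart-only regions. Kidney-only, lung-only and retina-only regions gave 27.6%, 27.8% and 23.0% in heart against 43.5%, 38.3% and 37.5% in brain and trunk. All regions of both adult heart libraries gave 84.0% against 88.6%, and brain-only regions 25.9% against 26.8%. Liver-only regions went the other way, with 45.6% against 39.9%. By medians, which heart library 3 moves less, heart was not lower for all regions of both adult heart libraries (88.5% against 88.3%). Nor was it for brain-only regions (31.7% against 27.1%). Kidney-only, lung-only and retina-only medians stayed lower in heart, at 31.5%, 32.1% and 27.0% against 45.2%, 37.7% and 45.9%.

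In counts, 363 heart-only regions (36.1%) had a peak in at least 2 of the 4 E12 heart libraries, against 91.4% of the other regions of both adult heart libraries and 40.2% of adult endothelial regions with no adult heart peak. Of the 1006, 451 had a peak in at least 1 E12 heart library, and 379 of these also had one in brain or trunk, which leaves 72 (7.16%) in E12 heart endothelium but in neither brain nor trunk, against 2.24% of the other regions of both adult heart libraries and 7.7% of those with no adult heart peak. Another 177 (17.6%) had a peak in brain or trunk but not in heart, against 3.3% and 12% of these sets. No E12 endothelial library of any organ had a peak at 378 regions (37.6%, against 2.94% and 39.8%), and 241 of these had one in both P6 heart libraries. A smaller group of 103 (10.2%) had a peak in no P6 and no E12 heart library, and 8 (0.795%) had one at E12 but not at P6. The counts of 241, 103 and 8 were not made for the other sets, so they describe the members only.

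The heart against brain contrast, the one other organ with libraries at both ages apart from heart, changed between the ages. Heart exceeded brain by 70.9 points at P6 and fell below it by a difference of −13.2 points at E12. The difference between the 2 contrasts was 84.1 points (exact permutation of organ within age, p = 0.00571 over 350 regroupings). This permutation takes organ labels as exchangeable within each age. Its p-values here are for no difference between heart and brain at either age, not for equal differences at both. With lists cut to 1 length within each age, heart minus brain was 37.0 points at P6 and −4.43 at E12, and the difference between them 41.5 points (exact permutation p = 0.00286), under 84.1 but in the same direction.

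**Figure D4:**
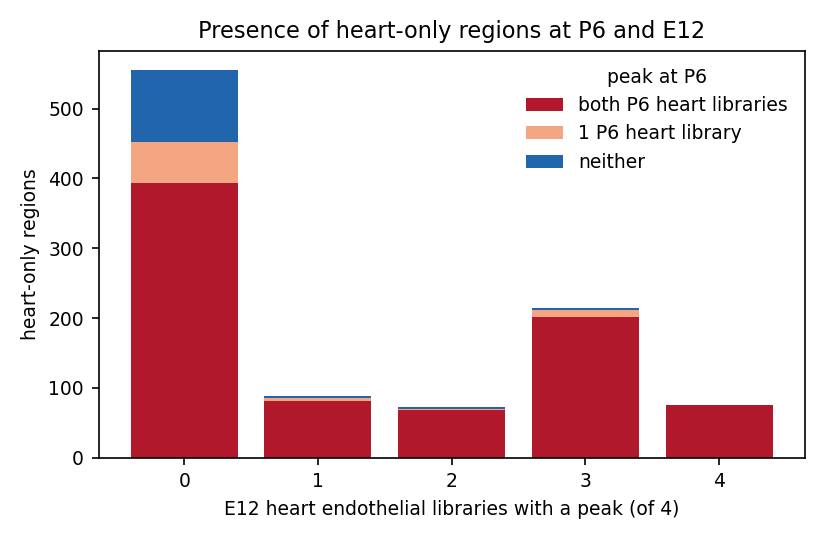
Number of heart-only regions (vertical) by how many of the 4 E12 heart endothelial libraries had a peak (horizontal), divided by presence in the 2 P6 heart endothelial libraries. The column at 0 holds 555 regions, of which 394 had a peak in both P6 heart libraries, and the columns from 2 to 4 hold 363.

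Most heart-only regions stood alone. With regions joined across gaps of up to 50 kb, 830 stood alone, 70 formed pairs, 7 formed triples and 3 groups held 4 or more. No other set of regions was joined in this way, so whether this is more or less grouping than elsewhere was not tested. By nearest start, 702 genes had 1 region, 101 had 2, 21 had 3, 6 had 4 and 3 had 5. The 15 genes with the most, and with the highest summed fold among ties, were Tnp1, Wt1 and Ablim3 with 5 each, Icos, Mgmt, Eno1b, Gata6, Plpp3 and Plcb4 with 4, and Adgrl4, Akap6, Jarid2, Ldoc1, Kirrel3 and Tcf4 with 3. Of their 57 regions, 50 had a peak in both P6 heart libraries, 26 had none in any other P6 endothelial library, and 22 had one in at least 2 E12 heart libraries. These are 87.7%, 45.6% and 38.6%, near the 81.6%, 42.3% and 36.1% of all 1006 regions. The nearest gene is a label of place and need not be the gene a region acts on.

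Wt1 encodes a zinc finger transcription factor of the epicardium, kidney and gonad that is also present in coronary endothelium. Its 5 regions lie between chr2:105095575 and 105172872, 4 of them in the gene (chr2:105126529-105173614). The region chr2:105126354-105126832 spans an end of the gene, whose start is not in the promoter table. All 5 had a peak in both P6 heart libraries, with folds of 5.13 and 4.90, 4.66 and 3.82, 3.71 and 3.78, 5.48 and 4.74, and 5.31 and 3.71 in genomic order. They parted from one another in other organs. The region at chr2:105139428-105140006 had a peak in all 4 E12 heart libraries (folds 3.08, 3.21, 3.44 and 3.52) and in no other P6 or E12 endothelial library, while the one at chr2:105172021-105172872 was in all 4 E12 heart libraries, in 5 other P6 libraries and in all 7 of E12 brain and trunk. The region at chr2:105146462-105146841 was in no E12 endothelial library. Of the 5, 3 had a peak in at least 1 P6 heart input. Of the other 4 epicardial genes, none had a start peak in either adult heart endothelial library. Nor did any of the 4 in the adult heart input, and at Wt1 the rule itself removed regions with an input peak.

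Peaks in both P6 and all 4 E12 heart libraries and in no other endothelial library of those ages occurred at 2 of the 1006 regions (0.199%). The same count was not made for other regions, so these 2 are described only. The first is the Wt1 region just named. The second, chr8:102945637-102945850, lies 160 kb from Cdh11, a cadherin of mesenchymal and valve cells. Its fold was 3.28 and 4.70 in the adult heart, 9.96 and 8.52 at P6, and 7.97, 8.00, 3.95 and 5.90 at E12. Both regions had a peak in the 2 P6 heart inputs and the E12 heart input.

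The other top genes were mostly reached from afar. Ablim3 was an exception, with 5 regions within chr18:61850398-61914720, 1.67 to 51.0 kb from an end of the gene. All had a peak in both P6 heart libraries, and they belong to the largest group of joined regions, with 6 members. Tnp1, a sperm nuclear protein gene, is the nearest start for 5 regions 56.3 to 392 kb away on chromosome 1; 3 had a peak in both P6 heart libraries, and chr1:73224381-73224864 had one in 3 E12 heart libraries (folds 5.06, 5.49 and 4.53) and in no endothelial library of another organ. Icos, a T cell co-stimulator gene, is nearest to 4 regions that lie together within chr1:61245223-61301989, 245 to 301 kb off, with none in E12 heart. The Icos region chr1:61295187-61295532 had adult folds of 4.98 and 5.44, P6 folds of 5.79 and 4.66, and no peak in any other P6 or E12 endothelial library. Plpp3 encodes a lipid phosphate phosphatase of the vessel wall. It had 1 region in the gene, 1.57 kb from its start (chr4:105158918-105159385), and 3 at 246 to 509 kb, all with a peak in both P6 heart libraries. Mgmt, a DNA repair enzyme gene, had 4 regions, 2 of them in the gene, all with a peak in both P6 heart libraries. Gata6, a transcription factor of endocardium, myocardium and endoderm, had 4 regions 70.4 to 248 kb away, all in both P6 heart libraries. Of the 3 regions near Ldoc1 on the X chromosome, 14.4 to 44.9 kb upstream, 2 had a peak in both P6 heart libraries, and none had one in any P6 or E12 endothelial library of another organ. Akap6, which encodes the anchoring protein mAKAP, had 3 regions, all in the gene. Jarid2, a component of polycomb repressive complexes, had 3 regions 78.8 to 338 kb upstream, and 1 of them, chr13:44651362-44651965, was in 9 other P6 libraries.

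The 15 regions with the highest adult fold, ranked by the lower of the 2 libraries, ran from 4.98 to 5.76. All 15 had a peak in both P6 heart libraries, against 81.6% of all 1006. Of the 15, 5 (33.3%, against 42.3%) had none in any other P6 endothelial library, 6 (40%, against 55.2%) had none at E12 in heart, and 8 (53.3%, against 27.5%) had one in a P6 heart input. The highest lies in Ccdc192 on chromosome 18, with folds of 6.03 and 5.76 in the adult and 5.67 and 7.43 at P6, a peak in 1 P6 heart input and none in any other P6 or E12 endothelial library. The next was chr5:64634042-64634507, 169 kb upstream of Klf3, a repressor of the Krüppel-like family, with folds of 6.07 and 5.5 in the adult and 6.39 and 6.19 at P6. After it came chr5:77157738-77158482, 42.6 kb upstream of Hopx, a homeodomain-only cofactor, with adult folds of 5.47 and 5.97 and P6 folds of 6.05 and 6.02. Each of these 2 also had a peak in 1 other P6 endothelial library and in none of E12 brain and trunk. A region in Zfp831 (chr2:174668823-174669215, adult folds 5.43 and 5.61) and one 27.2 kb from Eps8 (chr6:137676565-137677028, 5.47 and 5.16) had no peak in any other P6 or E12 endothelial library. Strength in the adult heart did not mean absence from other organs at younger ages. The region near Cnga2 (chrX:72094718-72095097), with adult folds of 5.15 and 6.55, had a peak in all 12 other P6 libraries and all 7 of E12 brain and trunk. The others were near Samd9l, Gm52030, Lrrn1, Dnajb6, Socs2, Efna5, Jarid2, Trp63 and Icos.

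Of 199 genes in 17 lists of cell types and pathways, 26 (13.1%) had a heart-only region in them or within 50 kb, against 5.9% of all 21887 protein-coding genes and 7.93% of the 16302 that had any adult heart region that near. The 199 include genes with no adult heart region that near, which the 16302 leave out. The members and lists were chosen with earlier results known, and no test was made. Heart capillary and fatty acid genes had the most by number, 7 of 18 (38.9%), then general endothelial genes with 5 of 18 (27.8%). That order rests on the window, since within 10 kb both lists had 3 genes. These are shares of genes, not set against how many adult heart regions lie near each gene. Within 50 kb, each of the 18 general endothelial genes had 4 to 16 adult heart regions and each of the 18 capillary genes 2 to 11. No excess per region is thus shown. The epicardial list had 2 of 5, the BMP and TGF-beta pathway 3 of 14, venous genes 2 of 10, arterial genes 2 of 16, endocardial and valve genes 2 of 18, the VEGF pathway 1 of 11, brain endothelial genes 1 of 12 and cardiomyocyte genes 1 of 18. None was near the 7 lymphatic, 10 liver, 7 lung and 6 kidney endothelial genes, nor near the 9 fibroblast, 10 mural and 10 blood genes. Of the 38 regions near listed genes, 30 had a peak in both P6 heart libraries, 18 had none in any other P6 endothelial library and 13 had one in at least 2 E12 heart libraries. These are 78.9%, 47.4% and 34.2%, near the 81.6%, 42.3% and 36.1% of all 1006 regions. A peak in at least 1 P6 heart input was present at 9 of the 38: 3 of the Wt1 regions, the farther Kcna5 region, the second Npr3 region and those of Aldh1a2, Bmp6, Bmpr2 and Vegfc. Distances below are to the listed gene or its start, but another gene can have the nearest start. That was so near Btnl9 (Olfr1395), Cav1 (Cav2), Timp4 (Syn2, both regions), Pln (Cep85l), Slc7a5 (Car5a) and Bmp6 (Gm47978). It was also so for the Fabp4 region outside the gene (Fabp12), the second Erg region (Kcnj15) and the Vegfc region (Gm33153).

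**Figure D5:**
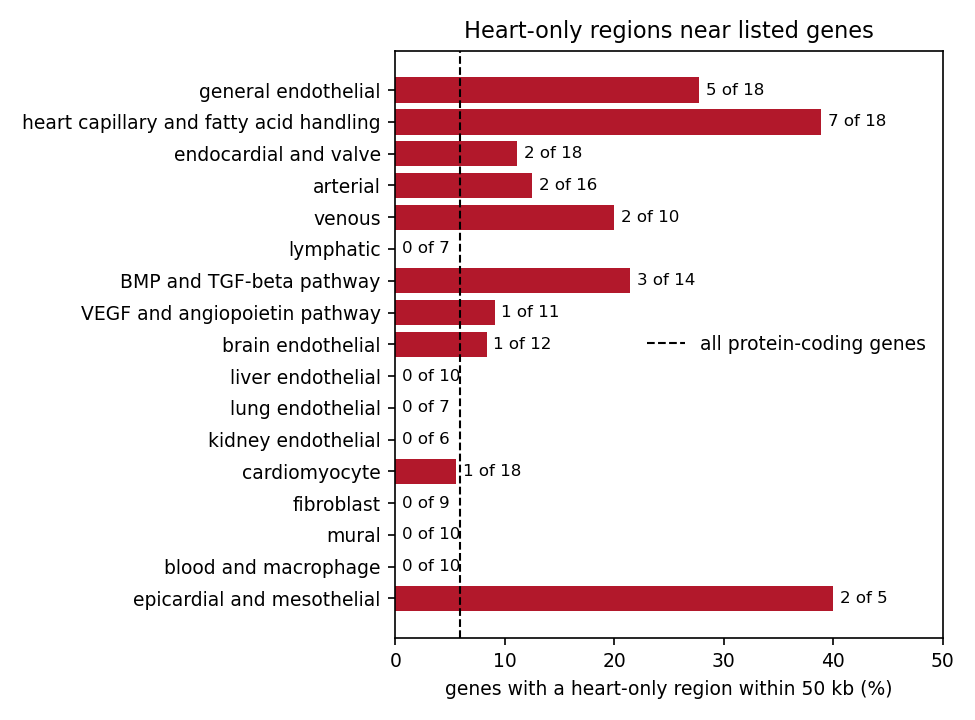
Share of the genes of each list (horizontal, %) with a heart-only region in the gene or within 50 kb; the number of genes is printed at each bar, and the dashed line is the share of all protein-coding genes, 5.9%. Heart capillary genes (7 of 18) and general endothelial genes (5 of 18) have the most genes with such a region.

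Among heart capillary genes, Meox2, a homeobox factor that drives fatty acid uptake genes in heart endothelium, had a region 1.23 kb before its start (chr12:37106744-37107311). Its fold was 2.55 and 2.33 in the adult heart, and of the P6 endothelial lists only heart library 2 had a peak there, at 2.26. Pparg, the nuclear receptor of lipid metabolism, had a region in the gene (chr6:115411480-115411744) whose fold was 3.17 and 3.66 in the adult and 7.87 and 8.05 at P6, where the 2 lung libraries had a peak as well. At E12 it was in 1 of 4 heart libraries and in 6 of 7 of brain and trunk. A second Pparg region, 15.0 kb before a start, was in P6 heart library 1 and in no other P6 or E12 endothelial library. Fabp4, the fatty acid carrier protein of capillaries, had a region in the gene (chr3:10204859-10205146) with adult folds of 2.95 and 3.87 and P6 heart folds of 3.50 and 2.82; no other P6 endothelial library had a peak there, and 1 of E12 brain and trunk did. Its other region, 24.9 kb off, was also in 3 other P6 libraries and 4 of E12 brain and trunk.

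Timp4, a metalloproteinase inhibitor, had 2 regions of opposite reach. The one 13.4 kb off (chr6:115230601-115231042, adult folds 3.68 and 4.21) had a peak in both P6 heart libraries and in no other P6 or E12 endothelial library, and the one 31.0 kb off was in 10 of 12 other P6 libraries and in all 11 E12 endothelial libraries. Kcna5, a potassium channel gene, had 2 regions 16.3 and 23.3 kb off; the farther one had P6 heart folds of 4.41 and 4.19 and no peak in other P6 endothelium but one in both P6 heart inputs, and the nearer one had none in P6 heart but was in 2 retina libraries. The region 35.4 kb from Cav1, which encodes the coat protein of caveolae, had adult folds of 3.98 and 3.67, was in both P6 heart libraries (3.48 and 3.87) and in no P6 or E12 endothelial library of another organ. Btnl9, a butyrophilin-like gene of capillaries, had a region 13.9 kb off (adult folds 3.47 and 3.58) seen in no P6 or E12 endothelial library.

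Genes shared by all endothelium also had heart-only regions in them or within 50 kb. Erg, an ETS factor that maintains endothelial identity, had one inside the gene (chr16:95361982-95362417) with adult folds of 2.67 and 2.84, P6 heart folds of 4.18 and 4.16 and peaks in 3 E12 heart libraries (3.44, 3.59 and 2.92). No P6 or E12 endothelial library of another organ had a peak there. A second Erg region, 13.9 kb outside, was in 5 other P6 libraries, in all 7 E12 brain and trunk libraries and in no E12 heart library. Flt1, a VEGF receptor that holds back VEGF signals, had a region 6.97 kb before its start (chr5:147732984-147733291, adult folds 4.18 and 4.20, P6 folds 6.00 and 3.68), also in 2 other P6 libraries. Of the 2 regions near Kdr, the main VEGF receptor gene, the one in the gene (chr5:75976146-75976396, adult folds 2.74 and 2.63) was in no P6 or E12 endothelial library, and the one 35.4 kb off was in 6 other P6 libraries and 6 of E12 brain and trunk. The regions near Robo4, a guidance receptor of endothelium (25.9 kb off, adult folds 4.04 and 4.40, P6 folds 6.18 and 6.00), and near the transcription factor gene Sox7 (38.1 kb off, adult folds 4.59 and 4.66, P6 folds 6.38 and 5.56) were in both P6 heart libraries and in no other P6 or E12 endothelial library. Their nearest starts were those of other genes, Hepacam at 7.99 kb and 4930578I06Rik at 1.05 kb.

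In the endocardial list, Npr3, the clearance receptor of natriuretic peptides, had 2 regions in the gene. The first (chr15:11877286-11877597) had adult folds of 3.27 and 3.57 and was in both P6 heart libraries and 1 of lung, and the second was in 6 other P6 libraries and all 7 of E12 brain and trunk. The region near Nfatc1, a factor of valve formation, was in both P6 heart libraries, all 6 brain and retina libraries of P6 and all 7 of E12 brain and trunk. For arterial genes, Efnb2, the ephrin ligand of arteries, had a region in the gene (chr8:8644378-8644880) with adult folds of 3.05 and 3.90, present in both P6 and 3 E12 heart libraries and also in 1 P6 library each of kidney and retina and 1 E12 trunk library. Sox17 had one 36.3 kb off with adult folds of 3.22 and 3.11 and P6 heart folds of 5.97 and 4.71, in no other P6 library but in all 7 of E12 brain and trunk. The venous genes were Nrp2, a co-receptor of VEGF-C and semaphorins, with 2 regions, and Vwf, the clotting carrier protein, with a region 4.21 kb off.

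For the signalling pathways, Bmpr2, a type II BMP receptor, had a region in the gene (chr1:59780984-59781388) with adult folds of 3.53 and 4.13 and P6 heart folds of 5.37 and 4.16, and no other P6 or E12 endothelial library had a peak there, while 1 P6 heart input did. The ligand gene Bmp6 had one 47.2 kb off that was in 5 other P6 libraries and 5 of E12 brain and trunk. The target gene Id3 had one 1.51 kb off, with folds of 2.40 and 2.33, in no P6 or E12 endothelial library. Vegfc, the lymphangiogenic ligand, had one in the gene that was in both P6 and 3 E12 heart libraries, in 1 other P6 library and in all 7 of E12 brain and trunk. Of genes of other cell types, Aldh1a2, the retinoic acid enzyme of epicardium, had a region 27.8 kb off with adult folds of 4.15 and 4.66, also in P6 brain library 2 and 1 P6 heart input. Pln, the phospholamban gene of cardiomyocytes, had one 39.5 kb off, in both P6 heart libraries, the 2 lung libraries and all 7 of E12 brain and trunk, and in neither P6 heart input. Slc7a5, an amino acid transporter of brain vessels, had one 35.4 kb off.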

How the data were processed

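ATAC-seq peak lists of 66 libraries were used as deposited. Per the file headers, the authors called broad peaks in each library separately with MACS 2.1.2, with no control, a shift of -100 and extension of 200 bases, q 0.05 (broad regions 0.1) and 1 tag per position. The submitters' processing notes name the mm10 build and Bowtie2, SAMtools 1.13, Picard, MACS2, DiffBind 3.2, R 4.1 and DESeq2 1.32.0, with no role given. The deposited columns are pileup (a signal), fold enrichment (a ratio), −log10 p and −log10 q. No tag counts per region were used, so presence of a peak, not accessibility, was compared. RNA and single-cell files were not analysed here.

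Peaks were merged and overlaps of at least 1 base counted in Python 3.11.15 (numpy 2.4.6, pandas 2.3.3), checked on simulated lists. Shares were compared by exact 2-sided permutation with libraries, not organs, as the unit, so p-values do not measure spread between organs. Everything else is a description. Genes and starts came from RefSeq (GRCm38.p6). For 4395 of 21887 protein-coding genes no start is listed and both gene ends were used. No genome was used, so motifs were searched in promoters only. Groups came from the labels. The alternatives tried were the peak threshold, the overlap, equal lists, the windows, the input condition, single libraries left out and a replicate block.

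The heart-only regions and the gene lists were chosen with earlier results of these data known. Named genes are the 15 with most regions by nearest start, the 15 regions of highest smaller adult fold, the regions in both P6 and all 4 E12 heart libraries and no other, and every listed gene with a region within 50 kb. Promoters with printed sequence were chosen after their overlap was seen. Replicates of a group shared at most 0.0557% of peaks with identical ends, so no list was a copy of another of its group; lists of different groups were not compared in this way.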

Additional observations from a re-analysis of the deposited data

Results flagged for a closer look

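The difference between heart and brain endothelial libraries in the share of heart-only regions with a peak changed from P6 to E12 by 84.1 percentage points. It was 70.9 points at P6 (2 heart and 3 brain libraries) and −13.2 at E12 (4 heart and 3 brain libraries), with p = 0.00571 by exact permutation of organ within age. The p-values of this permutation are for no difference between heart and brain at either age, so the change itself was not tested. Both P6 heart libraries lay above all 3 P6 brain libraries, and 3 of the 4 E12 heart libraries lay below all 3 E12 brain libraries. Without E12 heart library 3 the E12 difference was −6.23 points and the change 77.2 points (exact permutation p = 0.01). With lists cut to 1 length within each age, chosen after seeing the data, the differences were 37.0 and −4.43 points and the change 41.5 points (exact permutation p = 0.00286). Start peaks at the 18 cardiomyocyte genes differed as well. They were at 15 and 17 in P6 heart, at 1, 4 and 5 in P6 brain and at 10, 10, 3 and 11 in E12 heart. Over all protein-coding genes the shares were 61.9% and 61.7%, 51.5%, 65.4% and 63.8%, and 68.0%, 68.0%, 55.6% and 68.4% in the same order. E12 brain is not given here, so whether this difference changed with age cannot be told. Heart and brain also carry different read file suffixes, so organ and read processing cannot be told apart. The part of either was not tested.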

How the results depend on the processing

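The number of heart-only regions was 2392 without adult heart library 1, 1606 without adult heart library 2 and 1711 with the input condition dropped, against 1006. Leaving out single adult libraries gave 1008 to 2392, and the other alternatives 759 to 1711. The P6 difference of 65.5 points between heart and other organs stayed positive in every alternative run, from 53.3 to 66.8 points with single libraries left out and from 36.1 to 69.5 otherwise. Without either P6 heart library (64.2 and 66.8 points) the exact p was 0.0769, the smallest that 1 against 12 libraries can give. The E12 difference stayed negative, from −14.4 to −3.98 points with single libraries left out (without E12 heart library 3 for the latter, exact p = 0.3). It passed 0.05 with a 50% reciprocal overlap (−8.89 points, exact p = 0.0485), with peaks of −log10 q of at least 5 (−14.1, exact p = 0.0485), with equal top lists in every step (−8.97, exact p = 0.00303) or, an alternative chosen after seeing the data, in the younger lists alone (−6.09, exact p = 0.00303), and without adult kidney library 2 (−12.5, exact p = 0.0424), E12 heart library 4 (−14.4, exact p = 0.0417) or E12 trunk library 2 (−12.6, exact p = 0.019). The cause was not tested. A window of 2.5 kb put 4.27% of regions at a listed start against 1.69%, and a window of 10 kb left 14 listed genes with a region against 26, both by construction. Samples with the same replicate number did not deviate together (r of −0.00294, −0.0287 and 0.0177 for heart against lung, kidney and liver at P6). With the replicate block the P6 difference was 66.1 points (exact p = 0.0278) and the E12 difference −11.7 (exact p = 0.0556), and neither call changed. Heart-only regions had −log10 q down to 1.06, next to the calling threshold, so absence of a peak from a list does not show closed chromatin.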
